A study of Mus musculus with 96 samples.

Results

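Mme, Enpep, Anpep and Dpp4 encode peptidases of the cell surface, and their transcripts were measured in single epithelial cells of the neonatal mouse uterus. They are 4 of the 96 assays run on each cell, chosen by their assay names, which give the antigens CD10 (Mme), CD249 (Enpep), CD13 (Anpep) and CD26 (Dpp4). The 96 cells form 1 group. Their source was the uterus of postnatal day 7 mice. The tissue was digested with type I collagenase, and single CD326+ cells (CD326 is EpCAM, which joins epithelial cells to each other) were taken by flow cytometry. Each cell was lysed and preamplified in a reverse transcription PCR, and the assays were read by quantitative PCR with a DNA dye on a microfluidic chip. The labels name no treatment, control, strain, sex or animal, so cells are not replicates, no test between groups was possible and no p-value is given.

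The 4 proteins sit in the plasma membrane with their active site outside the cell, where they cut short peptides. Mme (neprilysin), Enpep (aminopeptidase A) and Anpep (aminopeptidase N) are zinc metallopeptidases. Neprilysin cuts within peptides such as enkephalins, substance P and natriuretic peptides. Aminopeptidase A removes acidic residues from the amino end and turns angiotensin II into angiotensin III, whereas aminopeptidase N prefers neutral residues. Dpp4 (dipeptidyl peptidase 4) is a serine peptidase that removes dipeptides ending in proline or alanine, among them those of the incretin hormones. CD10 is widely used as a marker of human endometrial stroma, and mouse Enpep is known as the BP-1 antigen of early B lineage cells.

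Detection meant a cycle threshold below 28; the cycle threshold (Ct) is the PCR cycle that first shows product, so it is lower with more template. Cells without a value carry a fill value of 40. Over the whole panel 52.6% of values were detected, and the median cell had 54 of the 96 assays (range 9 to 78). The 8 cells whose Gapdh Ct was above 18 or missing are called low-Gapdh cells; the median Gapdh Ct was 13.4 in the 95 cells that detected it. Cell 67, 1 of these 8, has no value in the first 71 assays of the table, which include all 4 peptidase genes, so its lack of them is no measurement. Of the epithelial markers, Krt18 was detected in 91 cells, Cdh1 in 85 and Epcam, the gene of the sort antigen, in 74.

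The promoters of the 4 genes are shown as background on the genes. Each line gives bases before a listed gene start (250 for Anpep, Enpep and Mme, 166 for Dpp4), 5′ to 3′ on the gene's strand, from RefSeq (GRCm38.p6). Capitals mark matches on either strand to the letters TATAAA, named the TATA box, to the letters of the CCAAT box, and to GGGCGG, named the GC box; none of the matches overlap.
Anpep, chr7:79848211-79848460, minus strand: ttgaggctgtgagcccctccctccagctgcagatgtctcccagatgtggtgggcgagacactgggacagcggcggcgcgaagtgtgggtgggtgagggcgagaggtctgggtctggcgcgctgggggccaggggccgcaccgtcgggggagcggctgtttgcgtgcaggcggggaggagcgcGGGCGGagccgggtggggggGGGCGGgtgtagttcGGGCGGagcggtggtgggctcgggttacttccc
Dpp4, chr2:62412316-62412481, minus strand: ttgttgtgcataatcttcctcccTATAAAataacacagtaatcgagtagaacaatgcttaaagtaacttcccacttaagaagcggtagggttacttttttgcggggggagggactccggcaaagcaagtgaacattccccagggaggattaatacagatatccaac
Enpep, chr3:129332750-129332999, minus strand: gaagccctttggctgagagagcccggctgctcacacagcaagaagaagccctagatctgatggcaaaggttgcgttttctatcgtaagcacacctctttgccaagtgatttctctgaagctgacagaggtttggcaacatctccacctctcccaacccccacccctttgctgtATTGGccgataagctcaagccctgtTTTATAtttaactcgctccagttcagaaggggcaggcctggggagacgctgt
Mme, chr3:63294961-63295210, plus strand: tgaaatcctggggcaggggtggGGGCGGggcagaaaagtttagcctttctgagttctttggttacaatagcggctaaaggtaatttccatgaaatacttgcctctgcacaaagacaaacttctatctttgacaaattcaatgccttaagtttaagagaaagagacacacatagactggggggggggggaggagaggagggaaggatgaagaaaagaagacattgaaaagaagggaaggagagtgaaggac

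Anpep and Dpp4 had listed windows that were unlike in G and C content and in motifs. They were found together more often than any other pair of the 4 relative to their single shares. Which gene starts these cells used is unknown, and no link between promoters and joint detection was tested. The Anpep window is 72.8% G and C and holds 3 GC boxes and no TATA or CCAAT box. For Dpp4 the table's window of 250 bases ends 84 bases inside the gene as RefSeq lists it, and the 166 bases outside the gene are printed. They are 42.8% G and C (43.6% in the whole window) and hold 1 TATA box and neither of the other motifs, as does the whole window. The Enpep window (52.4% G and C) holds 1 TATA box and 1 CCAAT box. For Mme, the table lists 3 gene starts, and the window of the most upstream start, printed above, is 45.6% G and C with 1 GC box. Those of its other starts, which lie inside the gene, are 73.2% and 73.6% G and C, with 2 GC boxes each and with 2 and 1 CCAAT boxes. Of 32851 windows of 250 bases, 12.4% hold the TATA box, 33.8% the CCAAT box and 32.7% the GC box, and their median G and C content is 52.4%. These matches describe letters and not sites of binding.

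Mme was found in most cells, Enpep in a smaller majority, and Anpep and Dpp4 in a minority. Mme was detected in 73 of 96 cells (76.0%, exact Clopper-Pearson 95% interval 66.3 to 84.2%). Enpep was detected in 62 cells (64.6%, interval 54.2 to 74.1%). Anpep followed with 41 cells (42.7%, interval 32.7 to 53.2%) and Dpp4 with 30 (31.2%, interval 22.2 to 41.5%). Intervals cover counting error only. Of the whole panel, 55.2% of assays reached 50% of cells, so that Mme and Enpep lie on the common side of the panel and Anpep and Dpp4 on the other.

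Neighbours in this order differed by 11.5 percentage points, except Enpep and Anpep, which differed by 21.9. Mme was detected without Enpep in 17 cells and Enpep without Mme in 6, and the intervals of their shares overlap. Anpep was detected without Dpp4 in 20 cells and Dpp4 without Anpep in 9, and their intervals overlap too. The genes were measured in the same cells, so overlap of intervals does not show that shares are alike. The intervals of Enpep and Anpep do not overlap: 35 cells had Enpep alone of these and 14 had Anpep alone. In the order of all assays Mme stood next to Esr1 and Epcam (74 cells each), Igf2r (73) and Cd200 (70). Enpep stood beside Itga3 (63), Ezh2 and Gja1 (62 each) and Cd55 (61), Anpep between Pax2 (43) and both Emx2 and Wnt5a (40 each), with h2b (44) further above. Dpp4 stood beside Fzd9 (30), Mki67 (29), Itgae (34) and Fut4 (35).

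All detections of the 4 genes were clear of the limit. None of them had a recorded value of 28 or above, although 45 such values occur elsewhere in the table, and the next value above the limit was always the fill value of 40. The latest recorded Ct was 24.4 for Mme, 23.4 for Enpep, 25.6 for Anpep and 26.6 for Dpp4.

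In the cells that detected them, Anpep came later than the other genes. Mme ran from a Ct of 14.2 to 24.4, with a median of 19.9 and a mean of 19.8 ± 2.16 (SD, n = 73 cells). Enpep ran from 15.8 to 23.4, with a median of 19.9 and a mean of 19.8 ± 1.88 (SD, n = 62 cells). Anpep ran from 16.9 to 25.6, with a median of 21.7 and a mean of 21.6 ± 1.73 (SD, n = 41 cells). Dpp4 ran from 15.4 to 26.6, with a median of 20.0 and a mean of 19.5 ± 2.66 (SD, n = 30 cells). Ct values of different assays compare only in rough order, since primer efficiency is unknown here.

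Against the panel, 86 assays found in at least 10 cells had a median Ct of 19.8 (quartiles 18.4 and 21.0) and a median SD of 2.20. Mme, Enpep and Dpp4 thus had a median Ct in the middle of the panel, and Anpep had one beyond its upper quartile. Dpp4 had the 15th largest SD of the 86 and Anpep the 76th. Dpp4 was thus found in fewer cells than Anpep but at an earlier Ct.

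**Figure D1:**
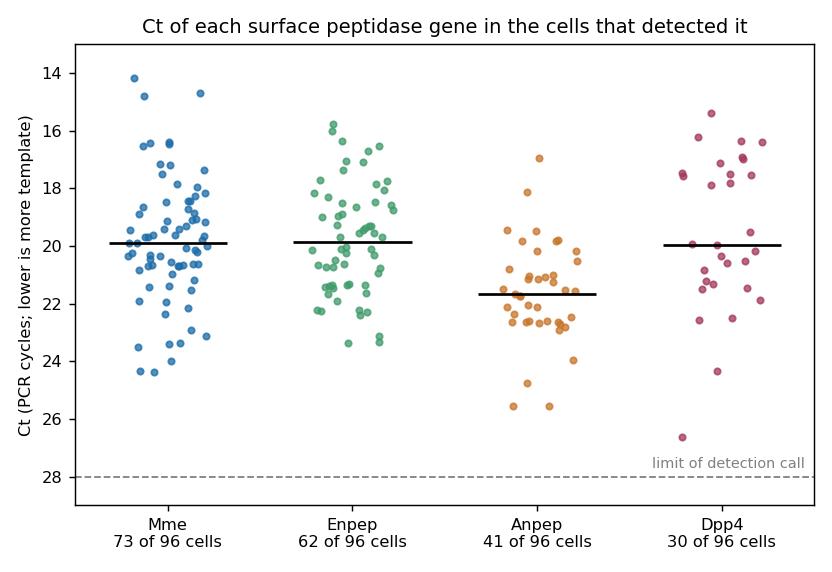
Each point is the Ct (in cycles, axis turned so that more template is higher) of 1 cell that detected the gene, the black line is the median, and the dashed line is the limit of 28. Anpep sits lowest, with a median of 21.7, and all points lie clear of the limit.

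Most cells carried at least 1 of the genes. In all, 86 cells detected at least 1 of the 4, among them 69 of the 74 cells with Epcam. No gene was detected in 10 cells (10.4%, interval 5.11 to 18.3%), 1 in 15 cells, 2 in 34, 3 in 25 and all 4 in 12 (12.5%, interval 6.63 to 20.8%). The number followed the depth of the cell: cells with none detected a median of 16 of the other 92 assays, cells with 1 a median of 47, and cells with all 4 a median of 56.5. Of the 10 cells with none, 7 were low-Gapdh cells, cell 67 among them.

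Mme with Enpep alone was the most frequent combination, and Dpp4 was found alone about as rarely as single shares would give. Of the 16 possible combinations 13 were found. Mme and Enpep without the other genes were found in 24 cells, Mme, Enpep and Anpep in 13 and all 4 in 12. Mme or Enpep was found without Anpep and Dpp4 in 36 cells, and Anpep or Dpp4 without Mme and Enpep in 7. Of the 30 cells with Dpp4, 28 also had Mme or Anpep. The 9 Dpp4 cells that lacked Anpep were 7 with both Mme and Enpep and 2 with Dpp4 alone. Dpp4 with Mme only, Dpp4 with Enpep only and Dpp4 with Enpep and Anpep were found in 0 of 96 cells, which allows a share of up to 3.12% each. Single shares within 3 strata of 32 cells by depth would give 3.80, 1.62 and 1.08 cells for these combinations. For Dpp4 alone they would give 2.42 cells, against the 2 found, and for Mme with Enpep alone 18.6, against 24.

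**Figure D2:**
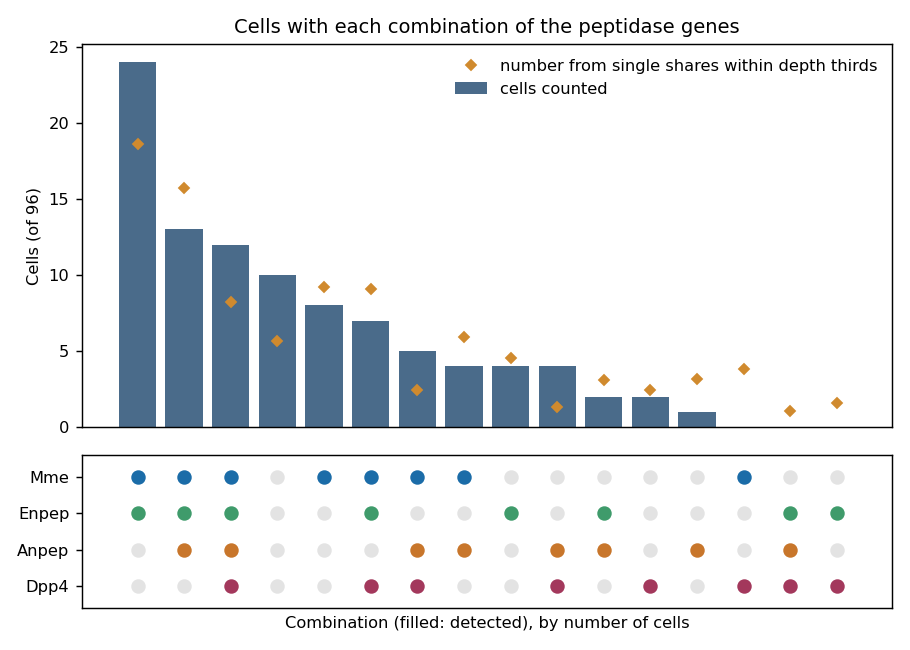
Bars give the number of cells (of 96) with each combination of the genes, marked by filled dots below, and diamonds give the number that single shares would give within 3 strata of cells by number of other assays detected. The combination of Mme and Enpep leads with 24 cells, and the 3 combinations at the right were not found.

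Anpep and Dpp4 were found in the same cells more often than their shares alone would give. Both were detected in 21 cells, so that 70.0% of Dpp4 cells had Anpep and 51.2% of Anpep cells had Dpp4. In the 55 cells without Anpep, Dpp4 was found in 16.4%. Because deeper cells detect more of every gene, the number to set this against was taken from single shares within 3 strata of 32 cells each, ordered by how many of the other 92 assays a cell detected. It came to 13.1 cells, 7.94 below the count. Over all 2850 pairs of the 76 assays found in 10% to 90% of cells, the same difference had a median of 0.594 cells, and 0.316% of pairs (9, this one included) reached 7.94 or more.

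Mme and Enpep also exceeded that number, by 4.38 cells. They were detected together in 56 cells against 51.6 from single shares, 90.3% of Enpep cells had Mme, and 4.60% of all pairs exceeded by as much or more. The other pairs were near it. Mme and Anpep were found together in 34 cells against 32.3, Mme and Dpp4 in 24 against 23.6, Enpep and Anpep in 27 against 28.1, and Enpep and Dpp4 in 19 against 20. These 4 differences, from -1.09 to 1.72, lie near the quartiles of all pairs (-0.781 and 2.06) or between them.

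**Figure D3:**
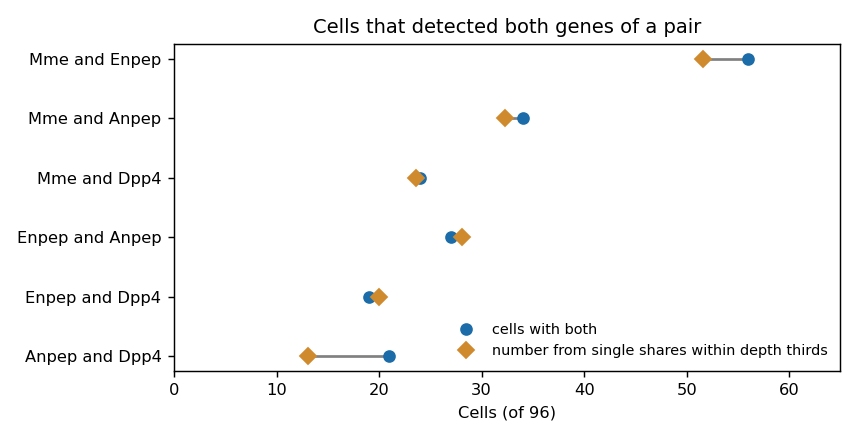
Circles give the cells (of 96) that detected both genes of a pair, and diamonds the number from single shares within 3 strata of cells by depth. The widest separation is for Anpep and Dpp4, with 21 cells against 13.1, and the circles of Enpep with Anpep and Enpep with Dpp4 lie to the left of their diamonds.

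Mme and Enpep followed the depth of a cell closely, and Dpp4 did so least. In the 32 shallowest cells Mme was detected in 17, Enpep in 9, Anpep in 11 and Dpp4 in 10. In the 32 cells of middle depth the counts were 25, 24, 14 and 6, and in the 32 deepest cells they were 31, 29, 16 and 14. From the shallowest to the deepest cells the share of Enpep was 28.1%, 75.0% and 90.6%, whereas that of Dpp4 was 31.2%, 18.8% and 43.8%, without a steady order.

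Shares were also higher where Gapdh, a measure of template in the cell, came earlier. In the 48 cells with the lower Gapdh Ct, Enpep was detected in 79.2%, against 50.0% in the other 48 cells. Mme was detected in 85.4% against 66.7%, Dpp4 in 37.5% against 25.0% and Anpep in 47.9% against 37.5%. The gap between these sets of cells was 29.2 percentage points for Enpep, 18.8 for Mme, 12.5 for Dpp4 and 10.4 for Anpep. Of the assays found in any cell, 91.6% were more frequent in the same direction.

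Leaving aside the low-Gapdh cells, Ct values of Mme tracked those of Gapdh most closely of the 4 and those of Anpep least. The Spearman rho was 0.73 for Mme (Pearson r = 0.76 over 72 cells, 0.74 without the 2 cells with Gapdh farthest from its median) and 0.62 for Enpep (r = 0.63 over 62 cells, 0.57 without such cells). It was 0.60 for Dpp4 (r = 0.63 over 30 cells, 0.65) and 0.36 for Anpep (r = 0.36 over 40 cells, 0.34). The median rho over 85 assays was 0.51 (quartiles 0.34 and 0.65). Cells share their preamplification and depth across genes, so these values are descriptions with no p. Subtracting the Gapdh Ct narrowed the SD of Mme to 1.40 from 2.14 cycles and that of Enpep to 1.48 from 1.88, while that of Anpep was 2.01 in place of 1.74.

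**Figure D4:**
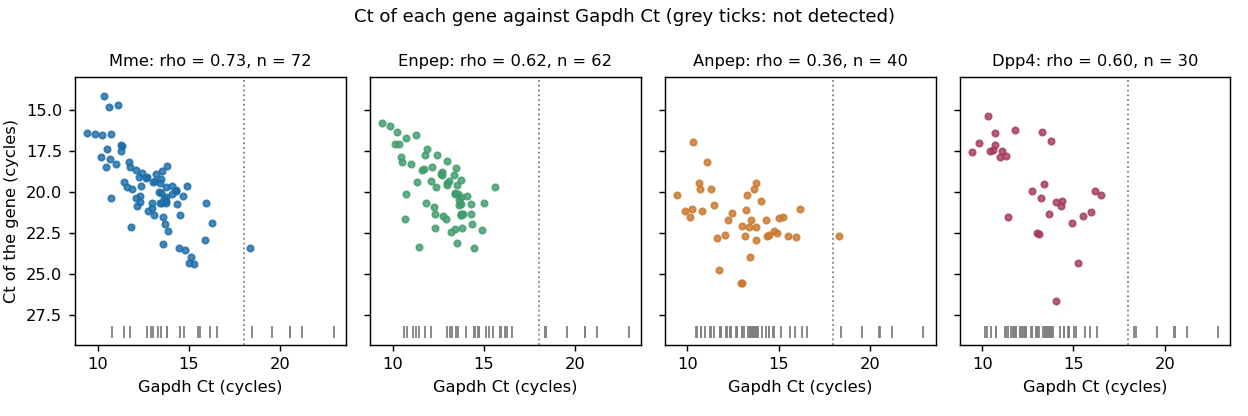
Each panel plots the Ct of 1 gene against the Ct of Gapdh in the same cell, both in cycles; grey ticks mark cells without the gene, and the dotted line is a Gapdh Ct of 18. The points of Mme follow Gapdh most closely (rho = 0.73) and those of Anpep least (rho = 0.36).

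In cells with both genes of a pair, Ct values were correlated for most pairs, and less so once Gapdh was subtracted. Over 24 cells Mme and Dpp4 had a rho of 0.80 (r = 0.77, or 0.69 once the 2 cells with Mme farthest from its median were left out), and 0.54 after the Gapdh Ct was subtracted from each. Mme and Enpep had 0.51 over 56 cells and 0.17 after subtraction. Anpep and Dpp4 had 0.49 over 21 cells and 0.37 after it. Enpep and Dpp4 changed sign, with 0.45 over 19 cells and -0.27 after subtraction, and Enpep and Anpep likewise, with 0.20 over 27 cells and -0.11. Subtracting the same Gapdh value from both genes also gives them a shared term, and its part in these values was not tested.

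All 4 genes were detected mainly in cells that also had Epcam, as 77.1% of all cells did: 90.2% of Anpep cells, 90.0% of Dpp4 cells, 82.2% of Mme cells and 80.6% of Enpep cells had it. Of the 74 cells with Epcam, 37 had Anpep (50.0%, interval 38.1 to 61.9%), against 4 of the 22 without it (18.2%, interval 5.19 to 40.3%). Dpp4 was found in 27 cells with Epcam (36.5%, interval 25.6 to 48.5%), against 3 without it (13.6%, interval 2.91 to 34.9%). Mme was found in 60 cells with Epcam (81.1%), against 13 without it (59.1%), and Enpep in 50 (67.6%), against 12 (54.5%). For Anpep and Dpp4 the intervals of the cells with and without Epcam overlap, which does not show that the shares are alike. Within the strata of depth, single shares give 32.4 cells for Epcam with Anpep, 24.1 with Dpp4, 58.6 with Mme and 51.0 with Enpep, against counts of 37, 27, 60 and 50.

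Levels of Enpep opposed those of several epithelial genes once depth was fitted, and not without that fit. Joint detection was near the number from single shares. Level here is 28 minus Ct, or 0 where undetected, with a linear fit on the number of assays detected in the cell subtracted, and likeness is the Spearman rho of these residual levels over the 96 cells. Enpep had a rho below 0 with all 6 epithelial markers, at -0.46 with Cd24a, a surface glycoprotein gene, -0.39 with Cdh1 (E-cadherin), -0.39 with Epcam and -0.35 with Krt18, and only -0.14 with Krt19 and -0.04 with Krt8. Without the fit on depth, which Enpep follows strongly, all 6 were above 0, from 0.06 with Epcam to 0.43 with Krt8. In the cells that detected both genes, the rho of Ct was 0.06 with Cd24a (60 cells), 0.15 with Cdh1 (57 cells) and 0.11 with Epcam (50 cells), so no opposed levels were seen there. Of the 6 markers, 5 were found with Enpep more often than single shares within the strata of depth give. Cd24a was found with it in 60 cells against 58.5 and Krt8 in 61 against 58.8, while Epcam had 50 against 51.0. Over all 3655 pairs of assays found in at least 10% of cells, 0.383% had a rho of -0.4 or below. The same 6 markers gave a median rho of -0.02 for Mme, 0.06 for Anpep and 0.09 for Dpp4.

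The assays most like Enpep were Dppa2, Cd34 and Tdgf1. Dppa2, a gene of pluripotent and germ cells, had a rho of 0.55 (r = 0.53), and its assay was detected in 82 of the 96 cells. Primers are not given, so which sequences this and the other assays amplify was not checked. Dppa2 was detected in all 62 Enpep cells, against 57.0 from single shares within the strata of depth. Enpep was found in 0 of the 14 cells without Dppa2, which allows a share of up to 21.4%. Cd34, a sialomucin gene of endothelial and blood progenitor cells, had a rho of 0.54 (r = 0.51). Of its 49 cells, 44 had Enpep, against 37.7 from single shares within the strata of depth. Enpep was found in 18 of the 47 cells without Cd34. Tdgf1, which encodes the Nodal co-receptor Cripto, had 0.49 (r = 0.38), with both genes in 54 cells against 49.8 from single shares. Enpep had a rho of at least 0.4 with 6 of 85 assays, where 4.76% of all pairs reached it.

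Among markers of other cell types, Ptprc and Cd34 had the highest rho with Enpep. Ptprc (CD45, a leukocyte phosphatase), the only marker on the immune list, had a rho of 0.44 with Enpep. Of the 57 cells with Ptprc, 51 had Enpep, against 43.8 from single shares within the strata of depth. Enpep was found in 11 of the 39 cells without Ptprc. Cd40, which is outside that list, had a rho of 0.39 with Enpep. The endothelial markers Pecam1 and Eng had a rho of 0.11 each, below the median absolute rho of 0.125 over all pairs, and the other stromal markers ran from -0.15 (sma) to 0.06 (Mcam). Cells with Enpep detected a median of 2 of the 3 endothelial markers (range 1 to 3). Cells without Enpep detected a median of 1 (range 0 to 3). The median was 2 of the 6 stromal markers and 6 of the 6 epithelial ones in both sets of cells. These medians were not adjusted for depth. Pecam1 was near universal, with 93 of the 96 cells, whereas Cd34 had 49 and Eng 13. With Enpep, single shares within the strata of depth give 61.2 cells for Pecam1, 37.7 for Cd34 and 8.97 for Eng. The counts were 62, 44 and 11, so the largest excess was that of Cd34. The part of Ptprc and Cd34 in the values of Enpep was not tested.

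The assays most like Dpp4 were Lgr5, Pgr and Fzd10. Lgr5, an R-spondin receptor gene known from epithelial stem cells, had a rho of 0.58 (r = 0.49) with Dpp4 and was found with it in 13 cells, against 7.12 from single shares. Of the 20 Lgr5 cells 65.0% had Dpp4, against 22.4% of the 76 cells without Lgr5. Pgr, the progesterone receptor gene, had 0.50 (r = 0.45): 24 of the 30 Dpp4 cells had Pgr, and 18.3 would follow from single shares. Fzd10, a Frizzled receptor gene of WNT signalling, had 0.45 (r = 0.41), with 16 cells against 10.2. The lowest was sma, at -0.33. Without the fit on depth the rho was 0.47 with Lgr5, 0.47 with Pgr, 0.43 with Fzd10 and -0.19 with sma. Dpp4 and Vim shared 0 cells, yet their rho was 0.14 with the fit and -0.18 without it. A residual rho of genes found in few cells thus depends on the fit. Dpp4 reached 0.4 with 6 of 85 assays, where 4.76% of all pairs reached it.

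Anpep shared Fzd10 and Dpp4 with this pattern. Its rho was 0.42 (r = 0.44) with Fzd10, found in 21 of the same cells against 13.4 from single shares, and 0.40 (r = 0.43) with Dpp4. Krt15, a keratin gene of basal and progenitor layers, followed at 0.39 (r = 0.38), with 33 of the 41 Anpep cells also carrying it, against 25.2 from single shares. With Lgr5 the rho of Anpep was 0.36. The lowest was Itga5, the integrin chain of the fibronectin receptor, at -0.37: 31.1% of Itga5 cells had Anpep, against 52.9% of the cells without Itga5.

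Mme resembled no assay as strongly. Its highest values were 0.33 with Nanog, a pluripotency factor gene (r = 0.22), 0.32 with Cd40, a receptor gene of the TNF family (r = 0.24), and 0.30 with Gapdh (r = 0.19), and its lowest was -0.29 with the assay h2b. No assay reached 0.4 with Mme, and its median absolute rho of 0.0786 compares with 0.125 over all pairs. Of the stromal markers, a group in which CD10 is often counted, Mme had a rho of 0.07 with Thy1, 0.04 with Nt5e, 0.01 with Eng, -0.02 with Mcam, -0.12 with Vim and -0.27 with sma. Vim, the mesenchymal intermediate filament gene, was detected in 7 cells, of which 5 had Mme.

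**Figure D5:**
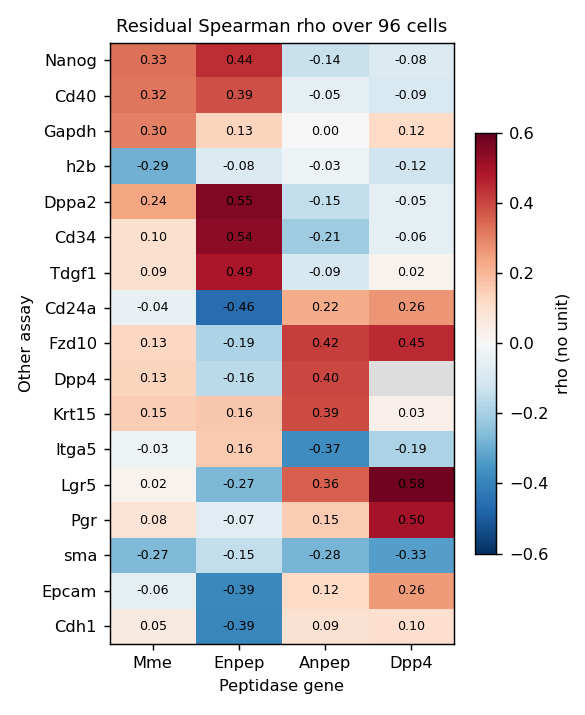
Cells of the grid give the Spearman rho, over 96 cells, between the residual level of each peptidase gene (columns) and that of other assays (rows), red above 0 and blue below; the grey cell is a gene with itself. Enpep is red with Dppa2, Cd34 and Tdgf1 and blue with Cd24a, Epcam and Cdh1 (blue only after the fit on depth), whereas Anpep and Dpp4 share Fzd10 and Lgr5.

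Of other surface enzymes on a wider list, only Nt5e and Ptprc were on the panel. Nt5e (CD73), which forms adenosine outside the cell, was detected in 83 cells (86.5%, interval 78.0 to 92.6%), more than any of the peptidases. It was found in 68 of 73 Mme cells, 60 of 62 Enpep cells, 37 of 41 Anpep cells and 29 of 30 Dpp4 cells. Its residual rho was 0.04 with Mme, 0.00 with Enpep, -0.11 with Dpp4 and -0.25 with Anpep.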

How the data were processed

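The deposited table of raw Ct values (a score with no fixed unit, per the file headers) was used for all results. The deposited ratio table holds fold changes over cell 1, per the file headers. Recomputing them with Gapdh as the reference gave the deposited log2 values to within 6.55e-06. Cell preparation is as in the labels' protocols; the sources used here do not give baseline, threshold or primers.

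All 96 columns of each table were matched to cells by number. The assays cd10, cd249, cd13 and cd26 were read as Mme, Enpep, Anpep and Dpp4; symbols for 92 assays are in a RefSeq table (GRCm38.p6), and 4 keep the name in the file. No depth in reads exists; the depth of a cell is its number of detected assays.

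Residual levels, strata and named genes (each member's 3 highest and 1 lowest rho, neighbours in share, references, listed enzymes) follow written rules. Members and lists were chosen with earlier results of these data known. Genes outside the rule, such as Thy1, were chosen after their values were seen. The linear fit and the strata were tested on simulated data in which every gene was found in most cells. That setting does not cover genes found in few cells, such as Dpp4 and Lgr5. Neither the fit nor the strata are taken to remove depth fully. No cells were removed as doublets; leaving out the 10% with the most assays was tried. Python 3.11.15, numpy 2.4.6, pandas 2.3.3, scipy 1.17.1 and matplotlib 3.10.9 were used.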

Additional observations from a re-analysis of the deposited data

How the results depend on the processing

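Ct limits of 24 and 26 and any recorded value were tried, as were the 63 cells with Gapdh, actin and Hprt, the 74 with Epcam, and all cells without the low-Gapdh cells, cell 67 or the 10% with the fewest or most assays. Of 98 values of shares, medians and SDs, 95 kept to their counting interval (shares), to within 1 SD (medians) or to a factor of 1.5 (SDs). The share of cells with none of the genes, 10.4%, was 3.41% without the low-Gapdh cells and 3.49% without the 10% of cells with the fewest assays. The SD of Mme, 2.16, was 1.41 on the log2 deposited folds, which subtract Gapdh. The excess of Anpep with Dpp4 ran from 5.05 to 8.41 cells and that of Mme with Enpep from 3.51 to 8.85 over 12 alternatives each. That of Mme with Dpp4 changed sign in 6 of 12, Mme with Anpep in 2 and Enpep with Anpep in 1. Strata by Gapdh Ct were added after the data were seen. Of 80 values of rho for the assays most and least like a gene, 72 kept their sign and moved by less than 0.15. The others came from omitting the fit on depth, which turned Enpep with Cd24a to 0.12, and from the cells with Epcam, an added setting, where Enpep with Tdgf1 was 0.34. All cells form a single group, and the labels give no pairing of cells. The 4 genes were measured in the same cells, and their shares were not compared by a paired test.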

Other observations

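All values here were picked after they were seen. The Ct values of Dpp4 left a gap: 13 cells lay at 17.9 or earlier, 17 cells at 19.5 or later, and none between. The widest step in the middle 50% of the other genes was 0.202 cycles for Mme, 0.386 for Enpep and 0.321 for Anpep. With the Gapdh Ct subtracted, the widest such step of Dpp4 was 0.298 cycles, so the gap is not seen on that scale. Cell 71 had the earliest Ct of Mme (14.2), Anpep (16.9) and Dpp4 (15.4), with Enpep at 17.0 and Gapdh at 10.3.

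Thy1, a surface glycoprotein gene of fibroblasts and T cells, was detected in 17 cells, of which 11 had Dpp4, against 5.94 from single shares, and 12 had Anpep, against 7.62. Of the 6 stromal markers, Thy1 included, only 2 were found with Dpp4 more often than single shares would give, and 4 with Anpep. Of the 7 cells with Vim, 0 had Dpp4, which in so few cells allows a share of up to 42.9%, and 2 had Anpep. Of the 13 cells with Eng, which encodes endoglin, 2 had Anpep, against 5.66 from single shares, and 3 had Dpp4, against 3.81. Enpep was found in 11 of the cells with Eng, against 8.97.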
